A study of Mus musculus with 16 samples.

Results

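The 36 genes described here are known targets of the hypoxia-inducible factors (HIFs) whose products act outside glycolysis. They were taken as a list of gene symbols, and each matched 1 of the 49585 gene identifiers in the deposited tables. The rule gives targets by name, and the list was chosen with earlier results of these data known. RNA of sorted neutrophils from mouse bones was sequenced in 16 libraries, 4 in each of 4 groups. In the P2KO group Vav:cre deleted floxed alleles of Egln1, the gene of the oxygen sensor PHD2. In the P2H2KO group the same Cre deleted PHD2 together with HIF2α, the product of Epas1. P2WT and P2H2WT were the controls of these lines and were labelled wild type. All mice were C57BL/6 and 8 to 12 weeks old. Vav:cre is active in the whole blood lineage, so the deletion was not limited to neutrophils. Whether the controls carried floxed alleles, and which markers were used for sorting, is not given in the sources used here. Nothing in the labels says whether each library came from a separate mouse, and p-values measure the spread between these libraries.

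PHD2 hydroxylates the HIFα subunits when oxygen is present, which marks them for destruction by the VHL ubiquitin ligase. When PHD2 is missing, HIF1α and HIF2α can accumulate, pair with ARNT and bind short DNA sequences of the form RCGTG near their target genes. The best known targets encode glycolytic enzymes. The genes on the present list cover other branches of the response: blood vessel growth, stress and growth control, transcriptional feedback, mitochondrial and endoplasmic reticulum function, pH and metal balance, storage of glycogen and fat, and arginine metabolism. The comparisons asked how many of them differed between PHD2-deficient and control libraries of sorted neutrophils. They also asked whether the differences were the same when HIF2α was deleted as well.

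Library totals ran from 23450746 to 28601284 counts, and 19611 to 20439 genes had at least 1 count. Levels are given as CPM, read counts scaled to a fixed library size, after TMM scaling, which evens out differences in depth and composition between libraries. Messenger RNA of Egln1 and Epas1 did not pass the test between genotypes. In the P2 line the log2 fold change of Egln1 was 0.038 (SE 0.094). Epas1 had a log2 fold change of 0.66 (SE 0.30) in the P2H2 line, above 0 in the libraries labelled as lacking HIF2α. These gene totals therefore did not check the labels, and whether reads fall in the deleted exons cannot be read from them. All 12 neutrophil markers were detected, with a summed level of 32900 to 86200 CPM. All 12 erythroid markers were detected too, at 26900 to 54500 CPM, or 2.69% to 5.45% of counts. The erythroid sum was above the neutrophil sum in P2KO replicates 5 and 9, P2WT replicate 4 and P2H2WT replicate 14. Summed levels were 834 to 1940 CPM for 8 B cell markers and 1780 to 2490 CPM for 14 monocyte and macrophage markers. For 5 eosinophil, basophil and mast cell markers they were 2380 to 5200 CPM. No marker was at 0 in all libraries. The monocyte and macrophage sum was 1930 to 2130 CPM in P2KO and 2170 to 2490 CPM in P2WT. It was 1780 to 2380 CPM in P2H2KO and 2240 to 2430 CPM in P2H2WT, and 13 of the 14 genes had a mean log2 fold change below 0. In bulk RNA, fewer cells of a type and less RNA per cell cannot be told apart. Which cell type a difference between genotypes came from was not tested.

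Of the 36 genes, 28 had enough counts to be tested in both lines, and only Ankrd37 was called. A gene was called at an adjusted p under 0.05 in edgeR's quasi-likelihood test, with Benjamini-Hochberg adjustment over all genes tested. Ankrd37, which encodes an ankyrin repeat protein, was 6.63-fold higher in P2KO than in P2WT libraries. It was 6.50-fold higher in P2H2KO than in P2H2WT libraries. No other member reached the threshold in either line, in the mean of both effects or in the test of their difference. Of all genes tested, 0.0437% were called in the P2 line (6 of 13734) and 0.0744% in the P2H2 line (10 of 13435). In the mean of both effects 0.17% were called (24 of 14080). In the difference between the effects 0% were called, while 1.51% had an unadjusted p under 0.05.

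**Figure D1:**
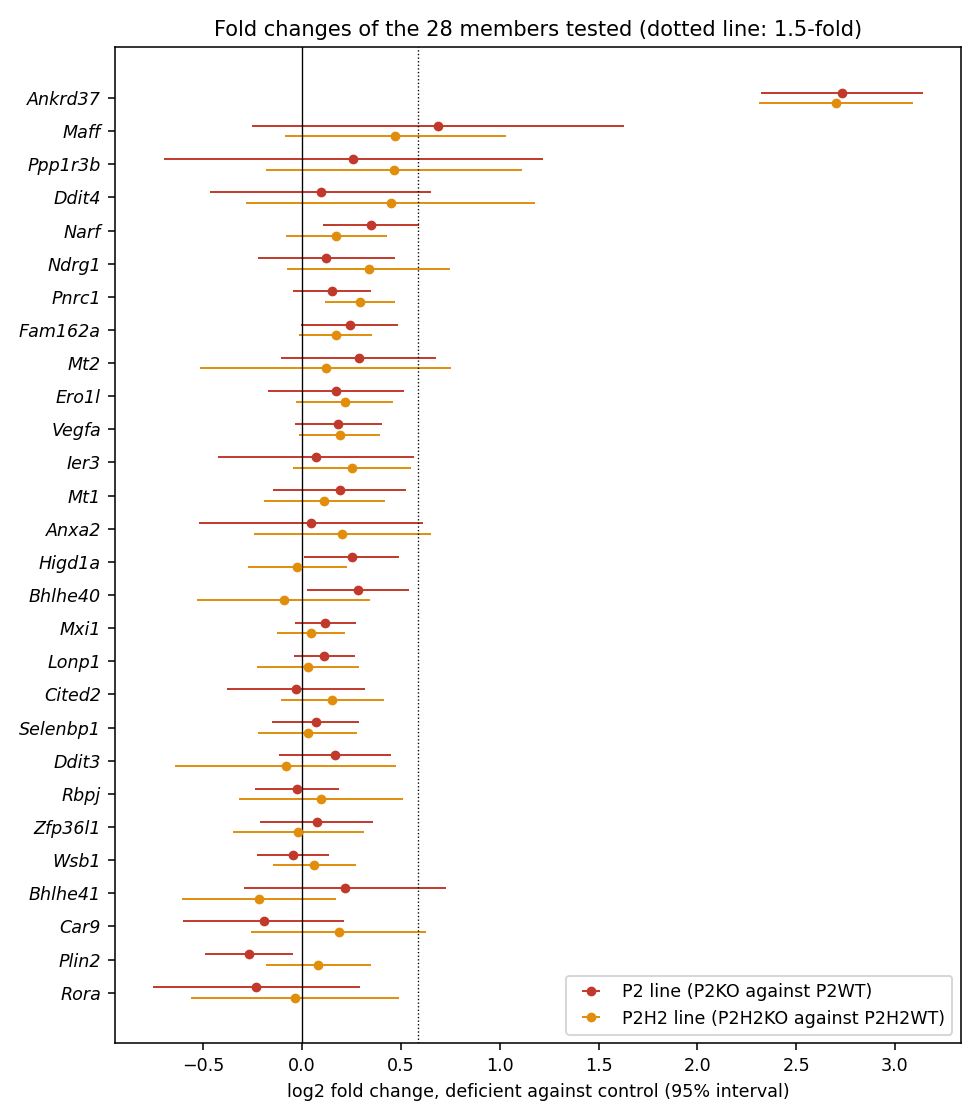
Log2 fold change of deficient against control libraries for the 28 members tested, with 95% intervals, in the P2 line (red) and the P2H2 line (orange), ordered by the mean of both effects; the dotted line marks a 1.5-fold increase. Ankrd37 stands at 2.73 and 2.70, while the intervals of most other members cross 0.

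None of the other 27 members was called, and their log2 fold changes were -0.27 to 0.69 for P2KO against P2WT and -0.22 to 0.47 for P2H2KO against P2H2WT. In each line 22 of the 28 had a fold change above 0, against 57.8% of all genes in the P2 line and 50.5% in the P2H2 line. The median log2 fold change of the members was 0.14 in each line, against 0.020 and 0.0011 for all genes. In all, 17 of 28 were above 0 in both lines, 5 in the P2 line only and 5 in the P2H2 line only, and Rora was below 0 in both. In the mean of both effects 24 of 28 were above 0, with a median of 0.11, against 51.9% and 0.0029 for all genes. With the erythroid or the neutrophil score as a covariate 23 of 28 were above 0 there, with medians of 0.0945 and 0.0938. With the monocyte and macrophage score as a covariate 18 of 28 were above 0 there, with a median of 0.050. In the lines taken singly, that covariate left 16 (P2) and 18 (P2H2) above 0, with medians of 0.14 and 0.11. The score was 6.32 to 6.69 in P2KO and 6.68 to 6.9 in P2WT, and it did not overlap between genotypes in the P2H2 line. Fits with this score therefore cannot cleanly tell it from the genotype in either line. The 95% interval lay wholly below a 1.5-fold increase for 20 of 28 members in each line, against 80.2% and 81.9% of all genes. In the mean of both effects it did so for 24 of 28, against 88.1%. The exceptions there were Ankrd37, Maff, Ppp1r3b and Ddit4.

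Ankrd37 was the member with the largest difference, and its libraries did not overlap between genotypes. It lies on chromosome 8 from 45996902 to 46005707 on the minus strand (GENCODE M21, GRCm38), and is protein-coding. The RefSeq start used for its start region below lies inside this span and not at its upper end. In P2WT replicates 10, 3, 4 and 7 it stood at 0.721, 0.789, 0.526 and 0.593 CPM, from 13 to 21 counts. In P2KO replicates 1, 5, 6 and 9 it stood at 3.75, 4.76, 3.99 and 4.95 CPM, from 101 to 138 counts. Every P2KO library was thus above every P2WT library. P2H2WT replicates 13, 14, 16 and 18 had 0.859, 0.837, 0.697 and 0.768 CPM, from 18 to 24 counts. P2H2KO replicates 11, 12, 15 and 17 had 4.28, 6.17, 4.71 and 5.50 CPM, from 99 to 153 counts. The same separation was seen in this line, and the deficient groups of the lines overlapped each other. A gap of this kind, with all deficient libraries above all controls in both lines, was found for 0.199% of all genes and for 1 of the 28 members.

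The log2 fold change of Ankrd37 was 2.73 (SE 0.18, 95% interval 2.32 to 3.14) in the P2 line, with an adjusted p of 0.000665 in edgeR. In the P2H2 line it was 2.70 (SE 0.17, 95% interval 2.31 to 3.09), with an adjusted p of 0.000414. The difference between the lines was 0.019 (SE 0.22, 95% interval -0.45 to 0.49; unadjusted p = 0.932). A difference in the Ankrd37 response between the lines inside that interval was not detectable. HIF2α deletion and anything else in which the lines differ cannot be told apart in this comparison. With the monocyte and macrophage marker score as a covariate the fold change in the P2H2 line was 2.91 (SE 0.32), and its adjusted p of 0.0959 no longer passed. That score was 6.25 to 6.54 in P2H2KO and 6.62 to 6.75 in P2H2WT, without overlap, so the score and the genotype cannot be told apart there. Exons of Ankrd37 overlap those of Ufsp2 and Lrp2bp on the opposite strand, over at most 349 bases. Ufsp2 had 29.6 ± 2.93 CPM in P2KO, 24.3 ± 2.74 in P2WT, 33.2 ± 3 in P2H2KO and 25.5 ± 1.48 in P2H2WT (mean ± SD, n = 4), and its mean log2 fold change of 0.33 had an adjusted p of 0.0661 in edgeR. Lrp2bp stood at group means of 0.0302 to 0.0623 CPM. Whether counting used the strand is not given in the sources used here, and the share of Ankrd37 counts that came from these neighbours was not tested.

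**Figure D2:**
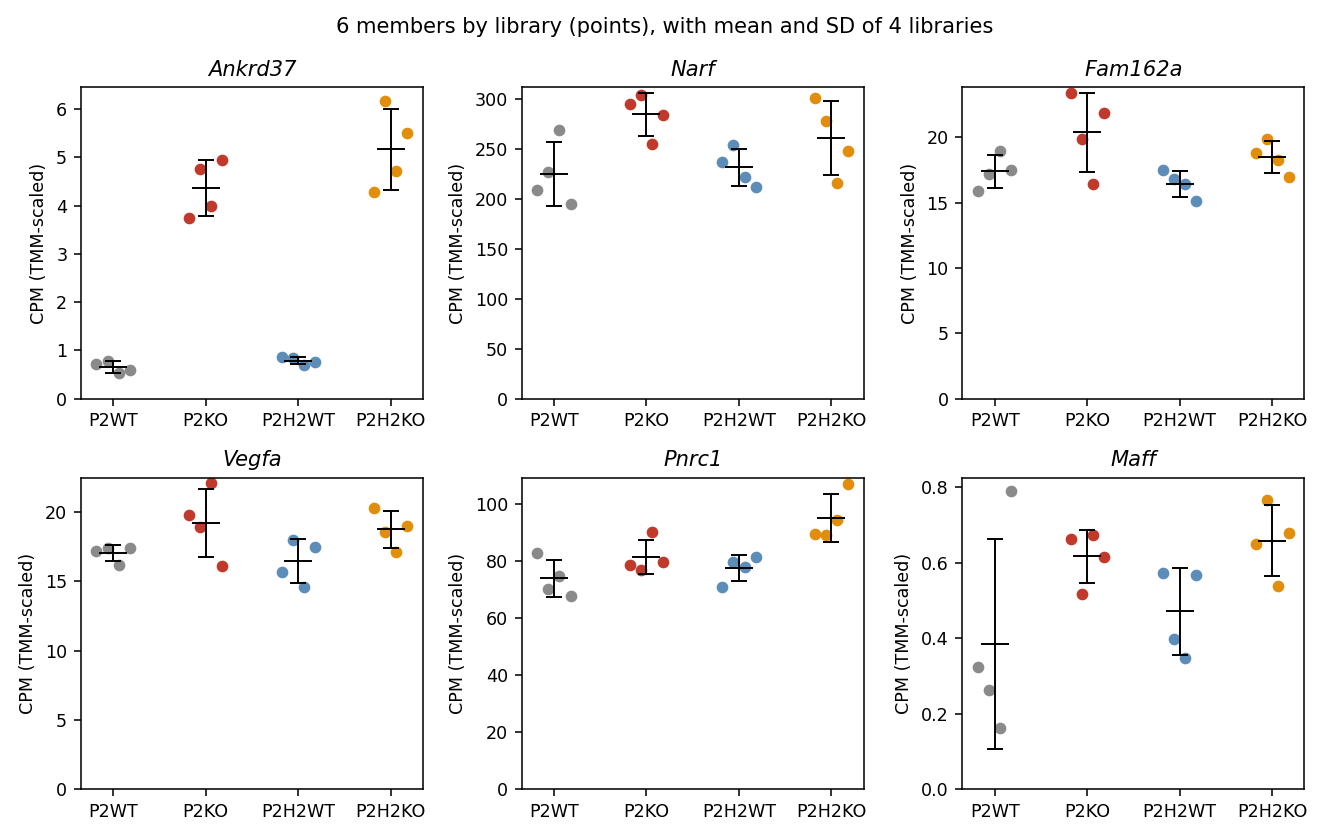
TMM-scaled CPM of 6 members in every library (points) of the 4 groups, with mean and SD of 4 libraries; each panel has its own axis from 0. Ankrd37 separates by genotype in both lines, and the other 5 overlap between genotypes in at least 1 line.

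The start regions of 4 members are shown because HIF binds near the starts of its targets and these members carry the recognition sequence in different numbers. Ankrd37 was the called member, and Narf and Fam162a were among those with the smallest unadjusted p. Wsb1 encodes the substrate receptor of a ubiquitin ligase. It had the most matches to ACGTG, counted on each strand, and a mean log2 fold change of 0.00083 (95% interval -0.13 to 0.14). The 4 members were chosen after their values were seen. Each run gives the 250 bases before the RefSeq start (GRCm38.p6), 5′ to 3′ on the strand of the gene, and capitals mark ACGTG or GCGTG on either strand. The regions are chr8:45999851-46000100 on the minus strand for Ankrd37, chr11:121236986-121237235 on the plus strand for Narf, chr16:36071562-36071811 on the minus strand for Fam162a and chr11:79254696-79254945 on the minus strand for Wsb1.
Ankrd37: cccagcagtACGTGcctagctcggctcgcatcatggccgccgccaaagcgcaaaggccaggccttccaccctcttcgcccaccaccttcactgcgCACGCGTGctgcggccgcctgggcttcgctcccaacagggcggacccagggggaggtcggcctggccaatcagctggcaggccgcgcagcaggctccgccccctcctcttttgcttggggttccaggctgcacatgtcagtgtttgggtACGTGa
Narf: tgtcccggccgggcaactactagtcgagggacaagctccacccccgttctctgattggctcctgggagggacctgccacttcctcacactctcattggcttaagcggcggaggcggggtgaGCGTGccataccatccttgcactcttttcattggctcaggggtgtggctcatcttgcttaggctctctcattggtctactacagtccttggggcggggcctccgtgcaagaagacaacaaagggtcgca
Fam162a: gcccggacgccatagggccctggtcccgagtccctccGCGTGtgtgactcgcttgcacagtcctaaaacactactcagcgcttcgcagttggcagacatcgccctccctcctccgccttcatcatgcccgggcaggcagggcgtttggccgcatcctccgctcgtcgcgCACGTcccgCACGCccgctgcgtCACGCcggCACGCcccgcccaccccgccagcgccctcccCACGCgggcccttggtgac
Wsb1: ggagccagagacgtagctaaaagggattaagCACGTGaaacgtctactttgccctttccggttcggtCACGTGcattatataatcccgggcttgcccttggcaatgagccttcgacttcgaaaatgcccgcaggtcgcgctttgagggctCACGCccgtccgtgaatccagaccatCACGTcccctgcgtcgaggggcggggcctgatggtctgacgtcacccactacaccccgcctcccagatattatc

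The Ankrd37 run held ACGTG 241 and 6 bases before the start, and GCGTG 155 and 152 bases before it. Narf held no ACGTG and 1 GCGTG, 129 bases before the start. Fam162a held 1 ACGTG and 5 GCGTG, and Wsb1 held 5 ACGTG and 1 GCGTG. Some of the Wsb1 matches lie in CACGTG, which reads the same on both strands and was counted on each. The place of Wsb1 as the member with the most matches includes these double counts. Windows from 250 bases before to 50 bases after the start were found for 31 of the 36 members, 39 windows in all. ACGTG occurred in 61.5% of these, against 19.6% of all 32851 RefSeq windows and 24.9% of the windows of genes tested here. GCGTG occurred in 59.0%, against 32.4% and 48.7%. A match is a description of the letters and not a bound site. Of the 31 members with a window, 22 held ACGTG in at least 1 window, and 2 (Pnrc1 and Car12) held neither sequence in any.

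Narf encodes a nuclear protein that binds prelamin A and was among the most abundant members. It stood at 209, 227, 269 and 195 CPM in P2WT replicates 10, 3, 4 and 7, and at 295, 304, 255 and 284 CPM in P2KO replicates 1, 5, 6 and 9. In the P2H2 line it stood at 237, 254, 222 and 212 CPM in control replicates 13, 14, 16 and 18. The P2H2KO replicates 11, 12, 15 and 17 had 301, 278, 216 and 248 CPM. The genotypes overlapped in both lines, through P2WT replicate 4 and P2KO replicate 6 in the P2 line. On the log2 scale Narf differed by 0.35 (SE 0.11) in the P2 line and by 0.17 (SE 0.11) in the P2H2 line. Their mean was 0.25 (SE 0.080, 95% interval 0.085 to 0.42), with an adjusted p of 0.629 in edgeR. The P2H2 value was 0.096 without P2H2KO replicate 11 and 0.10 with the monocyte and macrophage score as a covariate.

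Narf followed the erythroid markers from library to library. P2KO replicate 6 and P2H2KO replicate 15 had the lowest erythroid sums, 27000 and 26900 CPM, and the lowest Narf levels of their groups. P2WT replicate 4 had the highest erythroid sum of its group, 46600 CPM, and the highest Narf level. Narf was not alone in this. Selenbp1, Mt1, Mt2 and Ddit3 were also lowest of their groups in P2KO replicate 6 and P2H2KO replicate 15. Each of them was highest of its group in P2WT replicate 4. Selenbp1, for example, had 39.0, 40.9 and 49.8 CPM in these libraries. With the erythroid score as a covariate, the mean log2 fold change of Narf was 0.28, its SE fell to 0.035 and its adjusted p in edgeR was 0.000598. Under that fit 50 of 14080 genes were called, 2 of them members, Narf and Ankrd37. The fold change of Narf was 0.32 in the P2 line and 0.27 in the P2H2 line under the same covariate, with adjusted p of 0.339 and 0.0963, so neither line passed on its own. Without the covariate Narf was not called.

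**Figure D3:**
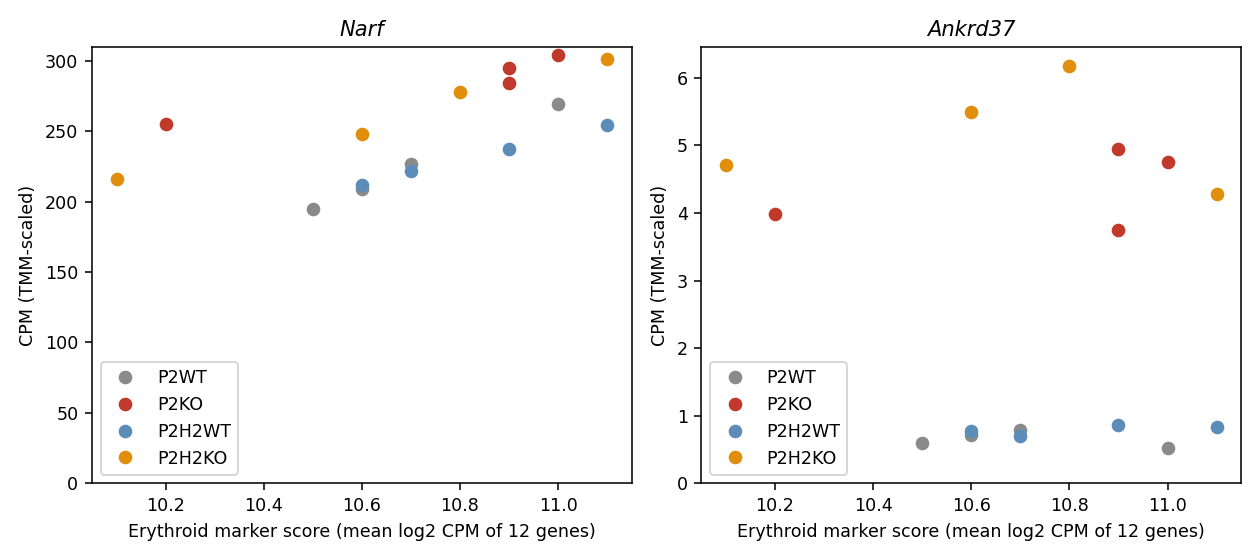
TMM-scaled CPM of Narf (left) and Ankrd37 (right) against the erythroid marker score, the mean log2 CPM of 12 genes, in 16 libraries coloured by group. Narf is higher in libraries with a higher score within each group, while Ankrd37 separates by genotype at low and at high scores.

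Among secreted factors, Vegfa was the member with enough counts. It encodes the main growth signal for blood vessels and is a textbook HIF target. P2WT replicates 10, 3, 4 and 7 had 17.2, 17.4, 16.2 and 17.4 CPM, and P2KO replicates 1, 5, 6 and 9 had 19.8, 18.9, 22.1 and 16.1 CPM. P2H2WT replicates 13, 14, 16 and 18 had 15.7, 18, 14.6 and 17.5 CPM, and P2H2KO replicates 11, 12, 15 and 17 had 20.3, 18.6, 17.1 and 19.0 CPM. Genotypes overlapped in both lines. On the log2 scale Vegfa differed by 0.18 (SE 0.097) in the P2 line and by 0.19 (SE 0.091) in the P2H2 line, and the mean was 0.18 (95% interval 0.041 to 0.32; adjusted p = 0.934 in edgeR). With the monocyte and macrophage score as a covariate the P2 value was -0.042 (SE 0.13), the P2H2 value was 0.30 and the mean 0.069. The sign in the P2 line did not hold in that fit, in which the score and the genotype can hardly be told apart. Without P2KO replicate 6 the P2 value was 0.11. Adm, which encodes the vasodilator adrenomedullin, Pgf, a relative of VEGF, and Stc2, which encodes a secreted stanniocalcin, had at most 12, 11 and 9 counts in any library and fell below the filter on low counts.

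None of the 5 growth, stress and signalling regulators passed. Ddit4 encodes REDD1, an inhibitor of mTORC1, and ranged from 10.6 to 35.3 CPM over the libraries. Its log2 fold change was 0.093 (SE 0.25) in the P2 line and 0.45 (SE 0.33) in the P2H2 line, and the spread inside groups was larger than for 95% of genes. Ndrg1, a stress-response gene and a common marker of hypoxia, had a mean log2 fold change of 0.22 (SE 0.13), and Ier3, an immediate early gene, 0.16 (SE 0.13). Ddit3, which encodes the stress transcription factor CHOP, had 0.035 (SE 0.15). In the mean of both effects all 5, Wsb1 included, had fold changes above 0 and none had an unadjusted p under 0.05.

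The 9 transcription regulators and RNA-binding genes included the feedback arm of the HIF response, and none was called. Pnrc1, which encodes a nuclear receptor coactivator, came closest. It had 82.6, 70.0, 74.7 and 67.8 CPM in P2WT replicates 10, 3, 4 and 7, and 78.4, 76.8, 90.2 and 79.6 CPM in P2KO replicates 1, 5, 6 and 9. It had 70.8, 79.5, 77.7 and 81.4 CPM in P2H2WT replicates 13, 14, 16 and 18, and 89.2, 89.0, 94.1 and 107 CPM in P2H2KO replicates 11, 12, 15 and 17. The genotypes overlapped in the P2 line through P2WT replicate 10, and did not overlap in the P2H2 line. The log2 fold change of Pnrc1 was 0.15 (SE 0.087) in the P2 line and 0.29 (SE 0.079) in the P2H2 line, and the mean was 0.22 (SE 0.057), with an adjusted p of 0.32 in edgeR. The P2 value was 0.097 without P2KO replicate 6, and the P2H2 value was 0.56 with the monocyte and macrophage score as a covariate. With the neutrophil marker score as a covariate, an alternative chosen after seeing the data, the mean was 0.21 (SE 0.040) and the adjusted p was 0.0335. Under that fit 49 of 14080 genes were called, and Pnrc1 and Ankrd37 were the members among them.

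Maff encodes a small Maf transcription factor and was among the lowest members that could be tested. It passed the filter on low counts through the deficient groups, where it was higher, so its fold change depends on that choice. Asking at least 10 counts in every library left Maff untested. In that fit 5 members were higher at an unadjusted p under 0.05 in edgeR in the mean of both effects. P2WT replicates 10, 3, 4 and 7 had 9, 7, 4 and 20 counts, or 0.324, 0.263, 0.162 and 0.790 CPM. P2KO replicates 1, 5, 6 and 9 had 0.662, 0.518, 0.672 and 0.614 CPM. P2WT replicate 7 was above all P2KO libraries, and the others of its group were below them. P2H2WT replicates 13, 14, 16 and 18 had 0.573, 0.398, 0.348 and 0.566 CPM, and P2H2KO replicates 11, 12, 15 and 17 had 0.649, 0.766, 0.539 and 0.677 CPM, so this line overlapped through P2H2KO replicate 15. The mean log2 fold change was 0.57 (SE 0.25, 95% interval 0.048 to 1.10; adjusted p = 1 in edgeR), and it ranged from 0.45 to 0.87 when single libraries were left out, with the highest value without P2WT replicate 7. The P2 value of 0.69 was 1.28 without that library and 0.44 without P2WT replicate 4.

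Other transcription regulators gave smaller values. Mxi1, which encodes a Myc antagonist, had a mean log2 fold change of 0.074 (SE 0.046) and the narrowest spread inside groups of the 28 members. Bhlhe40 and Bhlhe41, which encode circadian and hypoxia-linked repressors, had means of 0.088 (SE 0.12) and -0.0072 (SE 0.14). In the P2 line Bhlhe40 had 24.2, 25.1, 24.5 and 24.5 CPM in control replicates 10, 3, 4 and 7 and 26.0, 26.2, 36.9 and 29.3 CPM in deficient replicates 1, 5, 6 and 9. These did not overlap, with a log2 fold change of 0.28 (SE 0.11; adjusted p = 1 in edgeR), while the P2H2 value was -0.093 (SE 0.20). The P2 value of Bhlhe40 was 0.16 without P2KO replicate 6 and 0.088 with the monocyte and macrophage score as a covariate. Cited2, whose product competes with HIF for the coactivators CBP and p300, had a mean of 0.054 (SE 0.10). Rbpj, the Notch pathway factor, had 0.028 (SE 0.11), Zfp36l1, which promotes mRNA decay, 0.021 (SE 0.10), and Rora, a nuclear receptor gene, -0.14 (SE 0.17).

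Among the 28 members tested, 2 had deficient libraries all above their controls in the P2 line, Ankrd37 and Bhlhe40, against 0.859% of all genes. In the P2H2 line this held for 2 of the 28, Ankrd37 and Pnrc1, against 0.901%. Nos2, below the filter, also did not overlap in the P2H2 line. Its lowest P2H2KO library had 0.0359 CPM and its highest P2H2WT library 0.0358 CPM. At an unadjusted p under 0.05, 4 members were higher in the P2 line (Ankrd37, Narf, Bhlhe40 and Higd1a) against 1.49% of all genes, and 1 was lower (Plin2) against 2%. In the P2H2 line 2 were higher, Ankrd37 and Pnrc1, against 1.62%. In the mean of both effects 6 were higher, against 1.9%: Ankrd37, Pnrc1, Narf, Fam162a, Vegfa and Maff. Among these 6, Ankrd37 alone passed after adjustment. Maff passed the low-count filter through the deficient groups, where it was higher. These counts moved with the covariate. With the erythroid, neutrophil, or monocyte and macrophage score, 10, 9 and 3 members were higher in the mean effect. They were 7, 9 and 4 in the P2 line and 7, 5 and 3 in the P2H2 line. The share of all genes under these fits is not given here.

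The genes of mitochondria and the endoplasmic reticulum all had mean fold changes above 0, and none was called. Fam162a encodes a mitochondrial protein linked to cell death under hypoxia. P2WT replicates 10, 3, 4 and 7 had 15.9, 17.2, 19.0 and 17.5 CPM, and P2KO replicates 1, 5, 6 and 9 had 23.4, 19.9, 16.4 and 21.9 CPM. P2H2WT replicates 13, 14, 16 and 18 had 17.5, 16.8, 16.4 and 15.1 CPM, and P2H2KO replicates 11, 12, 15 and 17 had 18.8, 19.9, 18.3 and 17 CPM. P2KO replicate 6 and P2H2KO replicate 17 fell inside the range of their controls, and the other deficient libraries were above all their controls. For Fam162a the log2 fold change was 0.24 (SE 0.11) in the P2 line and 0.17 (SE 0.082) in the P2H2 line, and the mean was 0.20 (SE 0.069, adjusted p = 0.83 in edgeR). With the monocyte and macrophage score as a covariate these were 0.44 (P2), 0.0088 (P2H2) and 0.29 (mean). Fam162a exons overlap Wdr5b on the other strand over 168 bases.

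Ero1l, an oxidase that forms disulphide bonds in the endoplasmic reticulum, had a mean log2 fold change of 0.19 (SE 0.098). Higd1a, which encodes a mitochondrial inner membrane protein, had 0.11 (SE 0.078), and Lonp1, a mitochondrial protease gene, 0.064 (SE 0.068). In the P2 line Higd1a had 9.08, 10.4, 11.6 and 10.5 CPM in control replicates 10, 3, 4 and 7 and 11.9, 14.3, 10.8 and 12.1 CPM in deficient replicates 1, 5, 6 and 9. They overlapped, with a log2 fold change of 0.25 (SE 0.11; adjusted p = 1 in edgeR), and the P2H2 value was -0.024 (SE 0.11).

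Bhlhe40 and Higd1a also separated the control groups of the lines. All P2WT libraries were below all P2H2WT libraries for these 2 of the 28 members, against 7.77% of all genes without overlap in either direction. Bhlhe40 had 24.2 to 25.1 CPM in P2WT and 29.8 to 44.2 CPM in P2H2WT. Higd1a had 9.08 to 11.6 CPM in P2WT, and its lowest P2H2WT library stood just above at 11.6 CPM. Other genes separated these control groups too. Epas1 had 8.70 to 11.3 CPM in P2WT and 2.55 to 4.97 CPM in P2H2WT. Summed levels of 7 bone stroma markers were 493 to 1360 CPM in P2WT and 182 to 317 CPM in P2H2WT, and those of 7 endothelial markers were 86.2 to 103 and 60.1 to 67.5 CPM. Their part in the differences of Bhlhe40 and Higd1a was not tested. Line and anything that differed with it in handling cannot be told apart between the control groups.

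In the group for pH, metal and redox balance 4 of 5 genes were tested and none was called. Car9, which encodes carbonic anhydrase IX, is a standard hypoxia marker in tumours. It stood at 1.98 ± 0.313 CPM in P2WT, 1.71 ± 0.270 in P2KO, 1.95 ± 0.465 in P2H2WT and 2.22 ± 0.244 in P2H2KO (mean ± SD, n = 4). Its mean log2 fold change was -0.0099 (95% interval -0.29 to 0.27). The metallothionein genes Mt1 and Mt2 had 0.15 (SE 0.11) and 0.20 (SE 0.18), and Selenbp1, a selenium-binding protein gene, 0.043 (SE 0.077). Car12, which encodes another carbonic anhydrase, had 1 to 11 counts in a library and fell below the filter.

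Of the storage genes, Plin2 was the member with the lowest fold change in the P2 line. It encodes a coat protein of lipid droplets. P2WT replicates 10, 3, 4 and 7 had 133, 109, 108 and 127 CPM, and P2KO replicates 1, 5, 6 and 9 had 111, 92.6, 102 and 88.3 CPM, so that only P2KO replicate 1 reached into the control range. In the P2H2 line control replicates 13, 14, 16 and 18 had 113, 91.6, 124 and 95.9 CPM and deficient replicates 11, 12, 15 and 17 had 117, 98.4, 127 and 106 CPM. Plin2 thus had log2 fold changes of -0.27 (SE 0.099) and, in the P2H2 line, 0.082 (SE 0.12), with an adjusted p of 1 in edgeR for each. The difference between the lines was -0.36 (SE 0.16, 95% interval -0.70 to -0.024; unadjusted p = 0.0374, adjusted p = 0.999 in edgeR). Plin2 was the single member below an unadjusted p of 0.05 in that test, out of 28, against 1.51% of all genes.

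Ppp1r3b, which encodes a subunit that brings protein phosphatase 1 to glycogen, had the widest spread of the list. P2KO replicate 6 had 68.1 CPM while the others of its group had 19.0 to 24.5 CPM. The mean log2 fold change was 0.35 (SE 0.28, 95% interval -0.24 to 0.95). Ppp1r3c, another glycogen-targeting subunit gene, had 0 to 4 counts. The arginine-using enzymes Nos2 (nitric oxide synthase) and Arg1 (arginase) had 0 to 7 and 1 to 10 counts, and Tmem45a, which encodes a membrane protein, had 0 to 7. These 4 genes fell below the filter on low counts. Summed over the libraries of each group, Arg1 had 18 counts in P2KO, 11 in P2WT, 26 in P2H2KO and 13 in P2H2WT, and Nos2 had 7, 14, 7 and 1. Nos2 had 2, 2, 1 and 2 counts in P2H2KO replicates 11, 12, 15 and 17, and 1, 0, 0 and 0 in P2H2WT replicates 13, 14, 16 and 18. The 8 members below the filter were Adm, Pgf, Stc2, Car12, Ppp1r3c, Nos2, Arg1 and Tmem45a. Without the filter all 36 members were tested, and Ankrd37 was again the member called in each line and in the mean of both effects. Nos2 then had an unadjusted p of 0.0342 in the P2H2 line, with higher counts in P2H2KO (adjusted p = 0.963 in edgeR). Its difference between the lines had an unadjusted p of 0.0104 (adjusted p = 1 in edgeR). It was the single one of these 8 below an unadjusted p of 0.05 in any of the 4 comparisons, and at 0 to 7 counts no fold is given.

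Levels per length spread widely among the 28 members tested. On the scale of CPM per kilobase of exons, Anxa2 was highest with a mean of 149 over 16 libraries (range 83.9 to 214). It encodes annexin A2, a calcium-dependent membrane-binding protein, and its mean log2 fold change was 0.12 (SE 0.17). Cited2 with 57.1 (46.2 to 72.8) and Narf with 52.1 (40.5 to 63.3) followed and overlapped each other, and Pnrc1 had 39.0 (32.4 to 51.0). Plin2 and Mxi1 stood at 31.0 and 25.5. Fam162a, Selenbp1, Ero1l and Wsb1 stood at 21.4, 21.0, 20.1 and 19.3, with overlapping ranges. Vegfa had 4.17 and Ankrd37 1.78 (0.342 to 4.01), which put Ankrd37 at rank 24. Car9 at 0.853, Bhlhe41 at 0.285, Maff at 0.205 and Rora at 0.168 were lowest. Ankrd37, the called member, was thus in the lower part of the list.

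**Figure D4:**
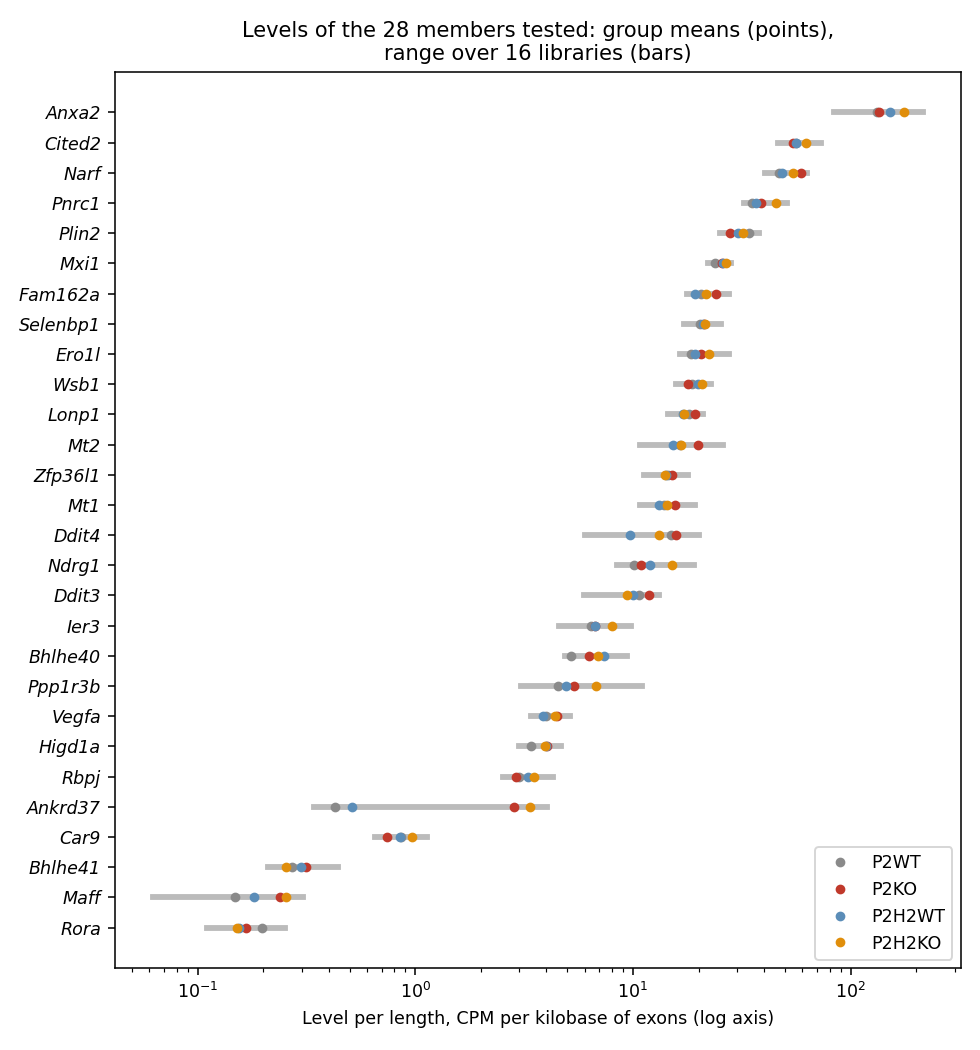
Level per length of the 28 members tested, in CPM per kilobase of exons on a log axis; points are group means and bars the range over 16 libraries. Ankrd37 has the means of its deficient and control groups farther apart on this axis than the group means of any other member.

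Of the 28 members, 7 were highest in the same 3 libraries, namely Ndrg1, Ier3, Cited2, Pnrc1, Ero1l, Ppp1r3b and Anxa2. These libraries were P2KO replicate 6, P2H2KO replicate 15 and P2H2KO replicate 17. They were picked after the values were seen. The share of all genes highest in these 3 libraries was not counted, so the number is not a trait of the members. Anxa2 had 782, 798 and 767 CPM there and 313 to 707 CPM in the others. Their neutrophil marker sums were 77100, 69600 and 86200 CPM, and in the deficient libraries of the same lines otherwise 32900 to 52800 CPM. Among the controls, P2H2WT replicate 18 had a sum of 73300 CPM and P2WT replicate 10 had 65000 CPM, so high sums were not limited to deficient libraries. With the neutrophil score as a covariate the mean log2 fold change of Ppp1r3b was 0.24 and its SE fell from 0.28 to 0.087. That of Anxa2 was 0.059 with an SE of 0.081, down from 0.17. Ero1l had 0.16 (SE 0.044) and Ndrg1 0.20 (SE 0.090) under this covariate. Of the 7, Pnrc1 was called and the others had adjusted p of 0.288 to 1 in edgeR.

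Other HIF genes were measured in the same libraries. Of 20 glycolytic HIF targets, 20 were tested and 4 were called in the mean of both effects: Aldoc (1.65), Pfkl (0.83), Tpi1 (0.76) and Pdk1 (0.63, all log2). The median of that list was 0.39, against 0.11 for the members and 0.0029 for all genes. Of 9 genes for mitophagy, collagen and histone enzymes, Bnip3 (1.08), P4ha1 (0.83) and Kdm3a (0.28) were called, with a median of 0.16. In the HIF system itself 15 of 16 genes were tested and Egln3, which encodes PHD3, was called at 0.91. Hif1a had a log2 fold change of -0.35 (SE 0.13; adjusted p = 1 in edgeR) in the P2 line and -0.026 (SE 0.13) in the P2H2 line. These lists, like the members, were written with earlier results known, and no test compared one list with another.

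**Figure D5:**
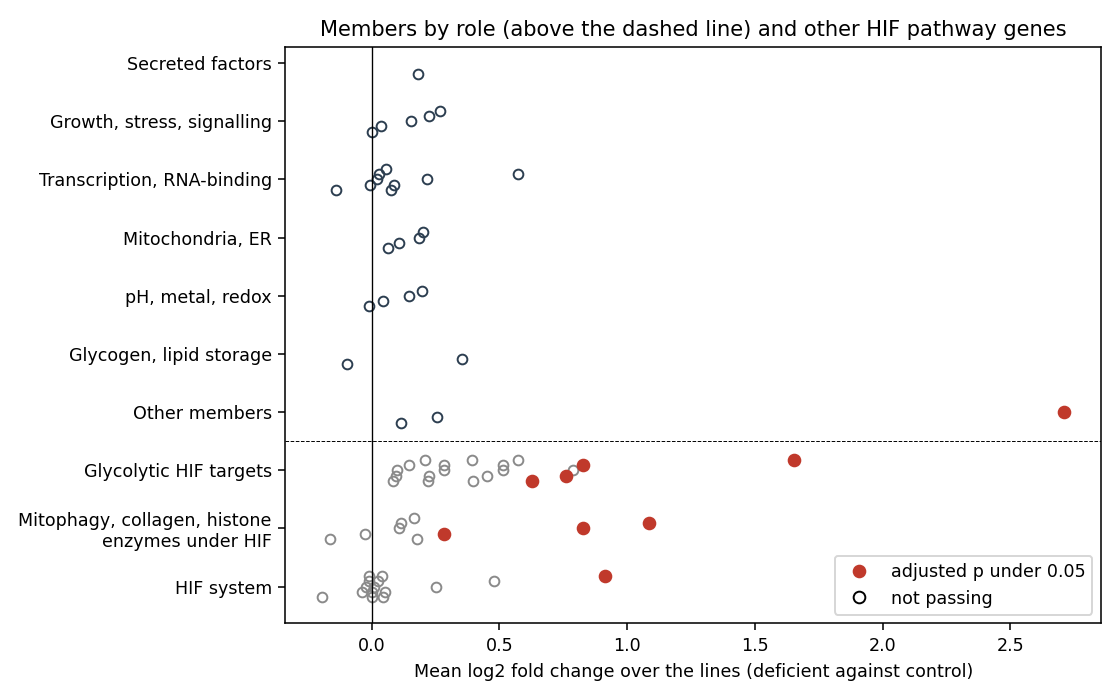
Mean log2 fold change over both lines for the 28 members by role (above the dashed line) and for other HIF pathway genes (below it); each point is a gene, filled where the adjusted p was under 0.05. Ankrd37 is the filled point among the members, and 8 are filled among the other lists.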

How the data were processed

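The authors deposited 2 tables of raw counts of reads per gene, 1 for each line, with 8 libraries in each and whole numbers for 49585 Ensembl identifiers, per the file headers. HTSeq and the build mm10 are named in the submitters' processing notes. Aligner, annotation and strand setting are not given in the sources used here. Identifiers without a symbol held 0.00714% of counts, and 0 columns of per-sample values were left unused. Groups came from the library titles and descriptions.

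Counts were tested as deposited with edgeR 4.0.16 in R 4.3.3: low-count filter by group, TMM scaling, quasi-likelihood F-test, two-sided, with Benjamini-Hochberg adjustment over all genes tested and a threshold of 0.05. Each line was fitted on its 8 libraries. The difference and the mean of both effects were fitted on all 16. DESeq2 1.42.0 was an alternative, as were other scalings and filters, the m or f suffix of the titles, marker scores as covariates and leaving out each library. The analysis was run on simulated counts with known changes, with a check on the mean estimates of the larger ones. How often smaller changes would be called is not given here.

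Values in every library are given for members called in any comparison, with an unadjusted p under 0.05 in the mean effect, or not overlapping in both lines. Bhlhe40, Higd1a and Plin2 were added after their values were seen. The members and lists were chosen with earlier results of these data known. Library pairs of 1 group correlated at 0.977 to 0.993 (24 pairs), and none agreed within sampling noise. Levels per length divide CPM by the exon length in GENCODE M21. Promoter windows came from the RefSeq table for GRCm38.p6, and motifs were searched on both strands. Exons of 13 members overlap other genes.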

Additional observations from a re-analysis of the deposited data

Results flagged for a closer look

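In 8 of 144 groups of 4 libraries, 1 library of a member stood apart from the other 3 by more than Dixon's 95% criterion allows. Chance alone flags about 1 in 20 groups. Ppp1r3b had 68.1 CPM in P2KO replicate 6, against 19.0 to 24.5 in the others, and Cited2 had 179 CPM there, against 114 to 121. Rora had 3.30 CPM in P2KO replicate 9, against 1.70 to 1.91. In P2WT replicate 4 Lonp1 had 83.6 CPM, against 76.4 to 77.6. In P2H2WT replicate 16 Ddit3 had 12.3 CPM, against 18.3 to 19.0, and Higd1a had 13.4 CPM, against 11.6 to 11.8. The remaining pair were members too low to test. Stc2 had 0.0404 CPM in P2WT replicate 4, against 0.180 to 0.198, and Nos2 had 0.0358 CPM in P2H2WT replicate 13, from 1 count, while the others had 0.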

How the results depend on the processing

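The number of members called was unchanged in the P2 line (1) and in the difference between the effects (0) under every alternative run. It was 0 in the P2H2 line with the monocyte and macrophage score as a covariate. It was 2 in the mean effect with the erythroid score as a covariate and 2 with the neutrophil score, the latter chosen after seeing the data. Leaving out single libraries gave 1 called member in each line and in the mean effect, and 0 in the difference. The log2 fold change of Ankrd37 then ran from 2.64 to 2.83 for P2, from 2.60 to 2.78 for P2H2 and from 2.66 to 2.76 for the mean. Its difference between lines ran from -0.0771 to 0.101 when single libraries were left out, and turned below 0 in 8 of these 16 fits. It was -0.011 with the monocyte and macrophage score, -0.0156 with the erythroid score and -0.025 with the neutrophil score. Vegfa in the P2 line was -0.042 with the monocyte and macrophage score. That score left 16 members above 0 in the P2 line, with 18 in each of the other comparisons of genotypes (the P2H2 line and the mean effect), in place of 22, 22 and 24. The scalings (RLE and upper-quartile factors) kept those counts. Over all genes DESeq2 called 23, 42 and 65 where edgeR called 6, 10 and 24, for the P2 line, for the P2H2 line and for the mean effect. The covariate fits called 2 and 1 genes in the lines and 11 in the mean effect with the monocyte and macrophage score, 11 in the P2 line and 50 in the mean effect with the erythroid score, and 14 and 49 with the neutrophil score. Fitting all 16 libraries together gave 10 in the P2 line, and the suffix covariate gave 4. No paired analysis was possible because the groups compared share no replicate number. The 8 members with at most 12 counts in any library were tested only without the filter, where 3 members were higher at an unadjusted p under 0.05 in the P2H2 line in place of 2, 3 in the P2 line in place of 4, and 2 were lower in the difference in place of 1.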
